A study of Drosophila melanogaster with 2 samples.

Results

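The translation factors of Drosophila melanogaster are the proteins that start, extend and end a polypeptide on the cytosolic ribosome. Their 54 protein-coding genes were selected on the gene symbol (eIF, eEF or eRF at its start), out of 13945 protein-coding genes. The set was proposed with the peaks of these data in view, so the summits at its transcription start sites (TSSs) chose it in part. Every count of summits below is therefore a description, with no test. The peaks come from chromatin immunoprecipitation and sequencing (ChIP-seq) of fd102C, a fork head domain protein, in whole embryos of both sexes aged 2 to 6 h. All embryos were of strain fd102C-GFP, which stably carries a transgene with GFP at the C-terminal end of fd102C. The 2 biological replicates form 1 group, so there was no contrast between conditions and no untreated sample was analysed here. The labels name the assay as transcription factor ChIP-seq but describe the samples as input control, and they are treated here as ChIP. A whole embryo mixes many cell types, so a weak peak from few cells and weak binding in many cells cannot be told apart.

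Translation begins when eIF2 brings the initiator tRNA to the small ribosomal subunit, with eIF1 and eIF1A guarding the choice of start codon and eIF3 serving as a scaffold. The eIF4 proteins bind the mRNA cap and unwind the leader, and eIF5 and eIF5B complete start codon recognition and the joining of the large subunit. In elongation, eEF1alpha delivers aminoacyl-tRNA and eEF2 moves the ribosome along, while eRF1 and eRF3 act at the stop codon. These genes are mostly housekeeping genes. Fork head domain proteins typically bind sequences close to GTAAACA.

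Peaks at 13 of the 54 genes passed the authors' reproducibility threshold, and 9 of the 13 are shown here as sequence to let a reader see what lay at or near the summits. Each stretch is the reference sequence (RefSeq, Release 6 plus ISO1 MT, the dm6 assembly), 5′ to 3′ on the strand of the factor gene. Capitals mark matches to the motifs described further on. The first 4 stretches are centred on the summit, because the summit lay away from the TSS of the factor gene or next to a fork head match.
eIF2Bbeta, chrX:2703861-2703961, plus strand, GTAAATA in capitals: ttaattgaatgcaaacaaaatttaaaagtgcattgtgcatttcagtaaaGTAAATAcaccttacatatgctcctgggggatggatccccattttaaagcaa
eIF4EHP, chr3R:24109164-24109264, minus strand, a pair of adjoining fork head matches in capitals: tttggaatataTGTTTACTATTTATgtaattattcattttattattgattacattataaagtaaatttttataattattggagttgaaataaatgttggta
eIF1, chr3L:3222941-3223041, plus strand, ACACTG in capitals: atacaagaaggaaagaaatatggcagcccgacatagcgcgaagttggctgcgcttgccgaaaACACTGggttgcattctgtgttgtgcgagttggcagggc
eIF2beta, chr3L:12526980-12527080, minus strand, no match: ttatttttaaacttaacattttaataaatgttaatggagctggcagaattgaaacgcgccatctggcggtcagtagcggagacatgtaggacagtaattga
For eIF5B 30 bases round the summit are given, with a fork head match in capitals (chr3L:3460732-3460761, minus strand).
eIF5B: atggttcccGTAAACAgcgcacgccagcgc
The next 2 are promoters that end at the twentieth base of the transcript and hold a match to the DREF site, with further matches to its CGATA core, on either strand, also in capitals.
eEF1gamma, chr3R:29220072-29220191, plus strand: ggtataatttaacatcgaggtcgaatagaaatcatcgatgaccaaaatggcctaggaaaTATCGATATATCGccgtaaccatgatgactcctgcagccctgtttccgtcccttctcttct
eIF3a, chr3R:4433876-4433974, minus strand: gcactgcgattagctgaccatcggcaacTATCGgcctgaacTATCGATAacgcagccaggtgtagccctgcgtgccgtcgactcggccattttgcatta
For eIF2A the 30 bases round its DREF match are given. For eEF2 the 30 bases round its TSS are given, with the match to the pyrimidine initiator in capitals. The eIF2A stretch does not reach the summit, and its opening ttac is the end of an unmarked fork head match, TGTTTAC.
eIF2A, chr3L:21824865-21824894, plus strand: ttacTATCGctTATCGATAcaccgcgtaca
eEF2, chr2L:21682107-21682136, minus strand: ctatggtcgctgcagcgcctcgCTCTTTCC

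A thresholded summit within 1 kb of a TSS was present at 13 of the 54 factor genes (24.1%). Among all 13945 protein-coding genes it was 9.08%, and no test was made of the difference since these summits are part of how the set was chosen. By step of translation, 9 of 44 initiation factor genes, 4 of 8 elongation factor genes and 0 of 2 release factor genes had such a summit. Each of the 13 genes had a single thresholded peak. The farthest summit inside 1 kb was that of eIF2Bbeta at 660 bp, and the nearest outside it lay 4473 bp from a TSS of eIF4E1.

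**Figure D1:**
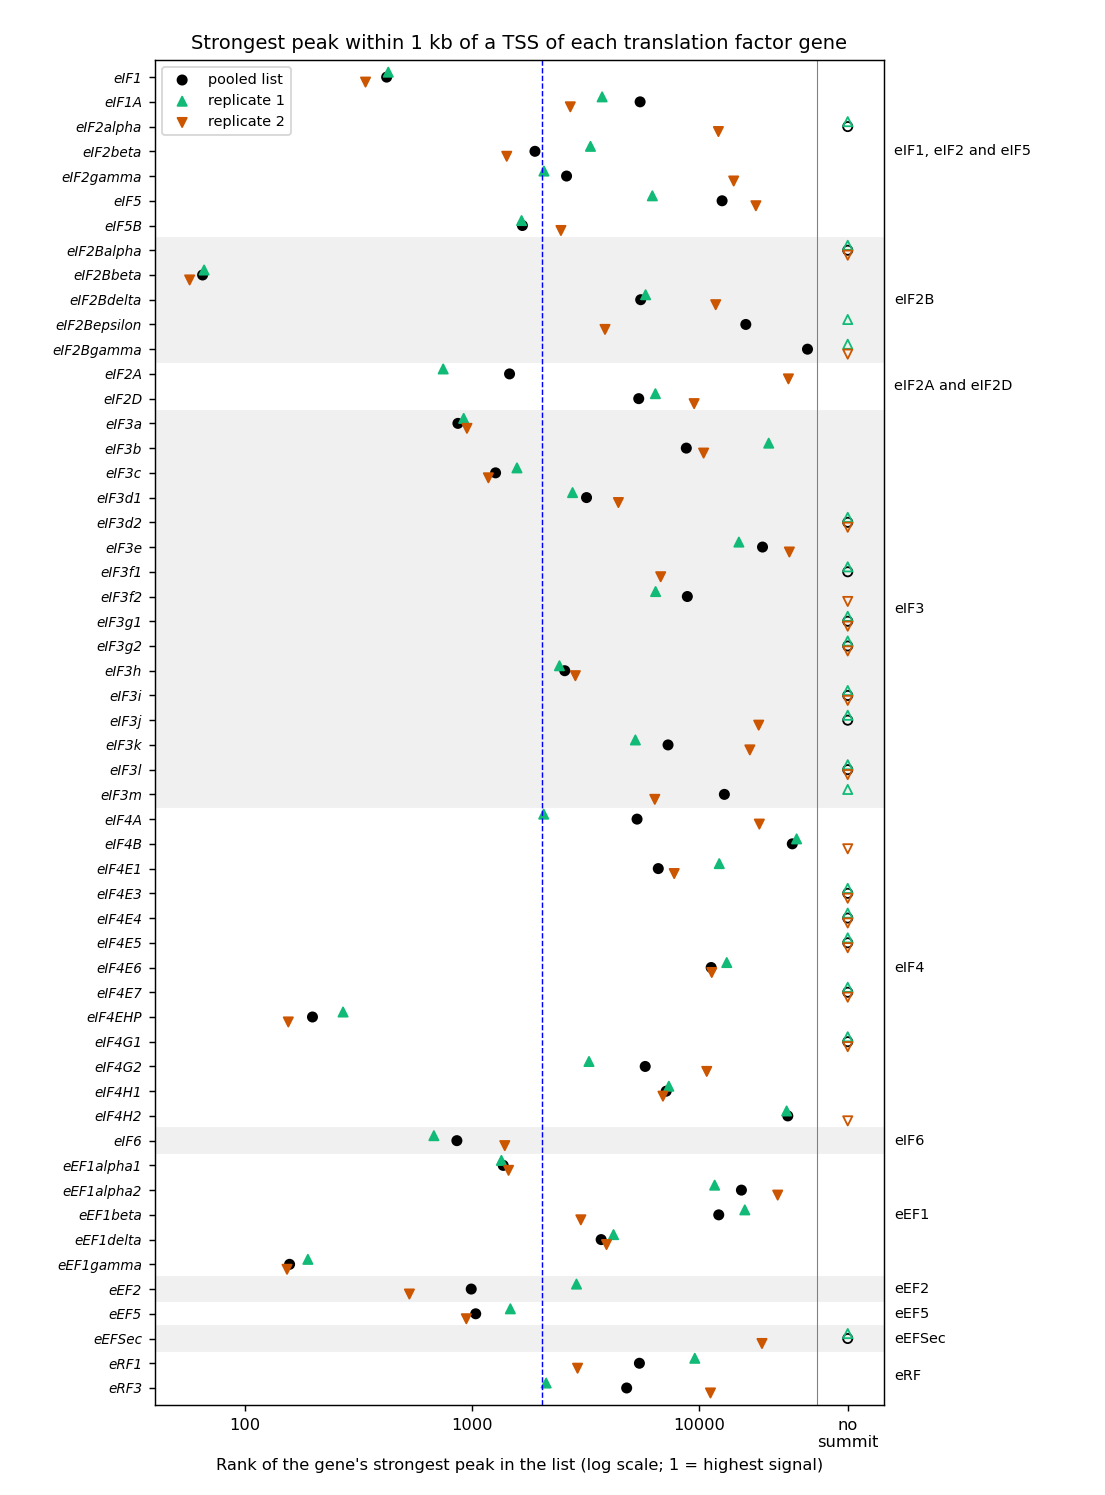
Rank of the strongest peak within 1 kb of a TSS of each of the 54 genes (x axis, log scale, 1 being the strongest) in the pooled list and in each replicate's list, with genes grouped by complex. Open symbols at the right are genes with no summit in that list, and the dashed line is rank 2031, the length of the thresholded list. The 13 genes left of the line in the pooled list are spread over most complexes, and neither release factor gene is among them.

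Among the ternary complex and start codon factors, 3 of 7 genes had a thresholded summit: eIF1, eIF2beta and eIF5B. The peak at eIF1 had a signal of 281 in the pooled list (rank 420), and it ranked 427 in replicate 1 and 339 in replicate 2. The signal is the authors' own value for each peak, on a scale not given in the sources used here, and is compared only within a list. The peak at eIF5B, the GTPase of subunit joining, had a pooled signal of 139 (rank 1663), with ranks of 1649 and 2458 in replicates 1 and 2. That at eIF2beta, a subunit of the tRNA carrier eIF2, had 130 (rank 1889) and stood lowest of the 13, with ranks of 3316 and 1419. The other eIF2 subunits had no thresholded summit. eIF2gamma, the GTP-binding subunit, missed the list by the least of the ternary complex genes, with a pooled signal of 111 (rank 2602) and a summit 59 bp upstream of its TSS. It ranked 2069 in replicate 1 and 14163 in replicate 2, so the replicates placed it far apart. eIF2alpha, the subunit whose phosphorylation lowers initiation, had no pooled summit, and only a weak one in replicate 2 (rank 12131). eIF1A had its strongest pooled peak at rank 5485 and eIF5, the GTPase activator of eIF2, at rank 12592.

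The 5 genes of eIF2B, the exchange factor that reloads eIF2 with GTP, held the strongest peak of all factor genes and some of the weakest. At eIF2Bbeta the pooled signal was 576 (rank 65), and the replicates ranked it 66 and 57. The next of the 5, eIF2Bdelta, had a signal of 77.6 (rank 5517), eIF2Bepsilon 50.3 (rank 16015) and eIF2Bgamma 38.5 (rank 29930), close to the end of the list of 30000. eIF2Balpha had no summit in any list. Of the factors eIF2A and eIF2D, which in mammals can bring tRNA to the ribosome without eIF2, eIF2A had a thresholded summit and eIF2D a pooled one at rank 5409. The replicates differed at eIF2A. Its pooled signal was 150 (rank 1460), with rank 745 in replicate 1 (signal 123) and rank 24666 in replicate 2.

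Of the 16 eIF3 genes, 2 had a thresholded summit, 7 had pooled summits only and 7 had none in the pooled list. The shares with a thresholded summit (12.5%) and a pooled summit (56.2%) were near the 9.08% and 58.6% of all protein-coding genes. The 2 with a thresholded summit were eIF3a and eIF3c, which encode core subunits of the complex. At eIF3a the pooled signal was 197 (rank 865), and the ranks in replicates 1 and 2 were 917 and 948. At eIF3c it was 160 (rank 1267), with ranks of 1574 and 1178. The subunits nearest to the threshold below it were eIF3h (signal 113, rank 2555) and eIF3d1 (signal 100, rank 3186), and both replicates placed each of these between rank 2421 and rank 4402. The genes eIF3b (rank 8761), eIF3e (rank 18970), eIF3k (rank 7280) and eIF3m (rank 12887) followed. No list held a summit at eIF3d2, eIF3g1, eIF3g2, eIF3i or eIF3l, while eIF3f1 and eIF3j had a summit in replicate 2 alone. Of the numbered gene pairs, eIF3d1 had a pooled peak and eIF3d2 had none, eIF3f2 had a pooled peak (rank 8852) and eIF3f1 had none, and neither eIF3g gene had a peak.

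In the eIF4 group 1 of 13 genes (7.69%) had a thresholded summit, a share near the 9.08% of all protein-coding genes. The gene was eIF4EHP, whose product binds the cap without recruiting eIF4G and represses translation of maternal caudal and hunchback mRNA in the fly embryo. Its peak had a pooled signal of 382 (rank 198), with ranks of 270 in replicate 1 and 155 in replicate 2. The main cap-binding factor eIF4E1 had a pooled peak of signal 72.0 (rank 6594). Of its paralogs, eIF4E6 had a pooled peak at rank 11271, and eIF4E3, eIF4E4, eIF4E5 and eIF4E7 had no summit in any list. The helicase gene eIF4A had 3 pooled summits, the strongest at rank 5317. Its best rank was 2064 in replicate 1 and 18371 in replicate 2. The scaffold gene eIF4G1, on chromosome 4, had no summit in any list, and its paralog eIF4G2, needed for male meiosis in flies, had a pooled one at rank 5775. Both eIF4H genes had pooled peaks, eIF4H1 at rank 7145 and eIF4H2 at rank 24511, and eIF4B had one at rank 25657. eIF6, which keeps the large ribosomal subunit from joining too early, had a thresholded peak of signal 198 (rank 856), with ranks of 678 and 1391.

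Elongation factor genes included 4 with a thresholded summit: eEF1alpha1, eEF1gamma, eEF2 and eEF5. At eEF1gamma, a subunit of the exchange complex of eEF1alpha, the pooled signal was 421 (rank 157), and the ranks in replicates 1 and 2 were 189 and 153. At eEF2, the translocase, the signal was 184 (rank 990), and the replicates ranked it 2878 and 529. At eEF5, known elsewhere as eIF5A and modified by hypusine, it was 179 (rank 1036), with ranks of 1472 and 942. At eEF1alpha1 it was 155 (rank 1369), with ranks of 1344 and 1445. That gene had 4 pooled summits near its TSSs, and its paralog eEF1alpha2 had 2, the stronger of them at rank 15317 (signal 51.2). eEF1delta (signal 92.8, rank 3695) and eEF1beta (signal 56.0, rank 12172), the other subunits of the exchange complex, had pooled summits only. eEFSec, the factor for selenocysteine, had none in the pooled list. The release factor genes eRF1 (signal 78.0, rank 5446) and eRF3 (signal 82.4, rank 4786) each had a pair of pooled summits below the threshold.

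The pooled list of 30000 peaks holds background as well as binding, as its name in the deposit says. It had a summit within 1 kb of a TSS at 39 of the 54 factor genes (72.2%), against 58.6% of all protein-coding genes. Beyond the 13 thresholded genes, 5 factor genes (9.26%) had their strongest peak between rank 2032 and rank 5000, where 12.5% of all protein-coding genes had theirs. Between rank 5001 and rank 10000 the shares were 20.4% and 12.0%, and 27.8% of factor genes had no pooled summit, against 41.4% of all. Of the 26 genes with pooled summits only, 20 had a summit in both replicates' own lists within 1 kb, 5 in a single replicate's list and 1, eIF2Bgamma, in neither. The 15 genes with no pooled summit included 11 with none in any list and 4 with a summit in replicate 2 alone. A replicate's summit could lie anywhere within 1 kb of a TSS and not only at the pooled peak. The shares of all protein-coding genes were not computed for these replicate counts. They therefore do not show that the pooled peaks were reproduced, or that factor genes differ from others.

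Each replicate was also read alone, taking its 2031 highest peaks. In replicate 1 such a peak had its summit within 1 kb of a TSS at 11 factor genes (20.4%), against 8.99% of all protein-coding genes, and in replicate 2 at 11 (20.4%), against 9.61%. Both sets of 11 were subsets of the 13. Replicate 1 lacked eEF2 and eIF2beta, replicate 2 lacked eIF2A and eIF5B, and 9 genes were in both. All 13 summits had a summit within 100 bp in each replicate's full list. The authors' threshold was itself on reproducibility, so this match is not independent of how the list was made.

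The summit lay upstream of the nearest TSS at 11 of the 13 factor genes (84.6%), a share near the 78.6% of all protein-coding genes with a thresholded summit within 1 kb. The summit was at the TSS itself in eEF1gamma (0 bp), 2 bp downstream of it in eEF5 and 4 bp upstream in eEF2. It lay 22 bp upstream in eIF2A, 32 bp in eIF3c, 48 bp in eEF1alpha1 and 63 bp in eIF3a. These 7 genes make 53.8% of the 13, where 35.2% of the 1266 protein-coding genes with a thresholded summit within 1 kb had it within 100 bp. Counted over all protein-coding genes, 3.19% had a thresholded summit within 100 bp, and 7 of the 54 factor genes did. The other 6 summits lay 115 bp (eIF6), 143 bp (eIF5B), 254 bp (eIF4EHP), 299 bp (eIF2beta), 350 bp (eIF1) and 660 bp (eIF2Bbeta) upstream. Upstream of the nearest TSS does not always mean outside the gene. The summits at eIF2A, eIF5B and eEF2 (5′ UTR) and at eEF1alpha1 (intron) lay downstream of another TSS of the same gene. The summit at eIF6 lay in an intron of its neighbour ytr. All 4 elongation factor genes were among the 7. The median distance was 63.0 bp for the 13 genes and 140 bp for the 1266. Of the 13 peaks, 11 were 360 bp wide, the median width in the list, while the peak at eIF2Bbeta spanned 235 bp and that at eIF4EHP 91 bp.

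**Figure D2:**
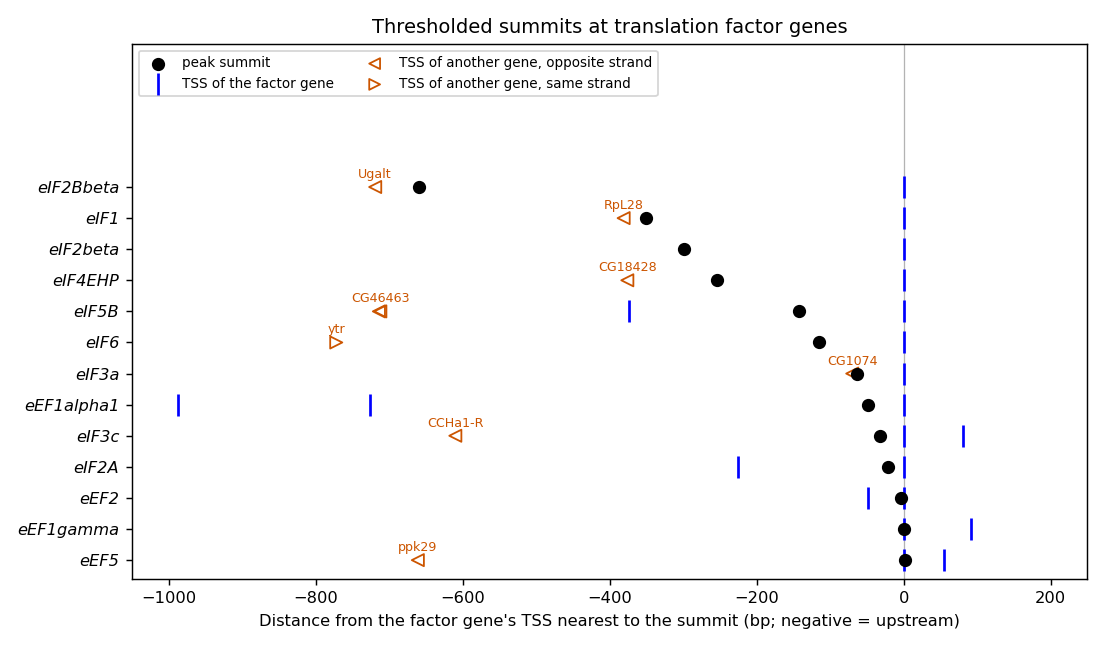
Position of the 13 thresholded summits (black points) relative to the nearest TSS of their factor gene, in bp with upstream negative, with the gene's own TSSs (blue bars) and, for each other protein-coding gene, the TSS nearest to the summit (orange arrows). The summits at eIF2Bbeta, eIF1, eIF4EHP and eIF3a lie closer to the start of a gene on the opposite strand.

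At 4 of the 13 genes the summit was nearer to the TSS of a neighbour transcribed from the opposite strand, so the peak cannot be assigned to the factor gene alone. The summit upstream of eIF1 was 31 bp from a TSS of RpL28, a ribosomal protein gene. The one upstream of eIF2Bbeta was 59 bp from a TSS of Ugalt, which encodes a UDP-galactose transporter. The summit at eIF3a was 7 bp from the TSS of CG1074, and that at eIF4EHP was 122 bp from the TSS of CG18428. These include the peaks of rank 65, 198 and 420, 3 of the 4 strongest at factor genes, and the remaining one was at eEF1gamma. A further 4 summits had another gene's TSS within 1 kb but farther away than the factor gene's own: armi and CG46463 for eIF5B, CCHa1-R for eIF3c, ytr for eIF6 and ppk29 for eEF5. The summits at eEF1gamma, eEF2, eEF1alpha1, eIF2A and eIF2beta had no other protein-coding TSS within 1 kb. Counting genes instead of summits, 9 of the 13 (69.2%) and 21 of the 41 other factor genes (51.2%) had another gene's TSS within 1 kb of their own. For all protein-coding genes with and without a thresholded summit those shares were 62.4% and 41.0%.

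Matches to the fork head consensus were counted around each summit on both strands, and no test was made of the shares. The consensus is GTAAACA and its variants with A in place of the first G or T in place of the C, on either strand. It was found within 100 bp of 6 of the 13 summits (46.2%), a share near the 41.5% of the 979 thresholded summits within 1 kb of a protein-coding TSS. Windows of the same width centred on the 19607 TSSs of protein-coding genes had it in 27.6%. Counted by gene, 24 of all 54 factor genes (44.4%) had a match within 100 bp of a TSS, against 34.8% of all protein-coding genes. Of the 6 summits, those at eIF2Bbeta, eIF3a and eIF4EHP were nearer to a neighbour's TSS. The middle of a match lay 2 bp from the summit at eIF2Bbeta and 3 bp at eIF5B, as the sequences above show. At eIF6 it lay 20 bp away, at eIF4EHP 29 bp and 36 bp for the adjoining pair, at eIF3a 73 bp and at eIF2A 78 bp. None of the summits at the 4 elongation factor genes had a match within 100 bp, and the nearest, at eEF2, was 112 bp away. Counted by gene, eEF1alpha1 and eEF2 did have a match within 100 bp of a TSS. With only 4 summits, and a match at 41.5% of thresholded summits near TSSs, this absence cannot set elongation factor genes apart. The presence of a match does not show binding through it.

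**Figure D3:**
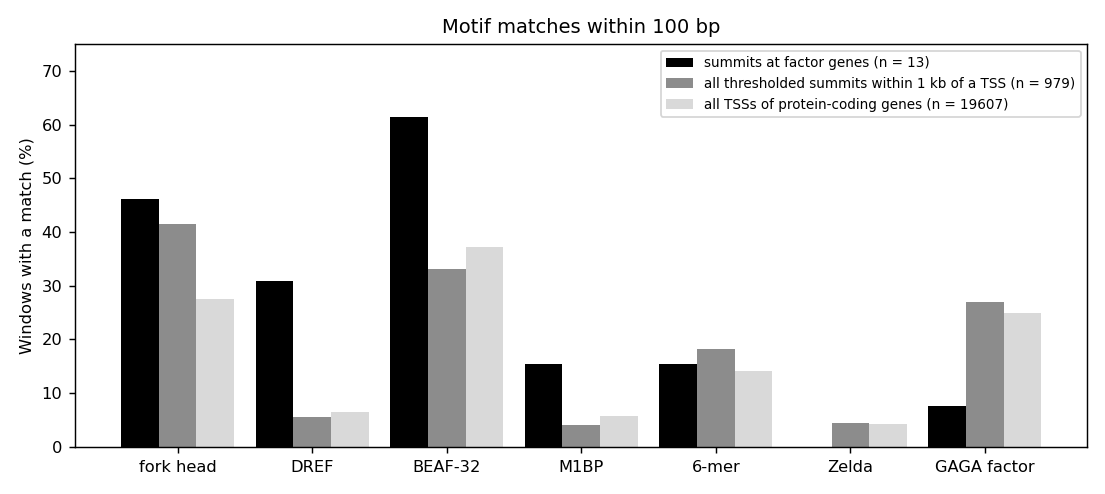
Share of windows (y axis, percent) with a match within 100 bp, for the 13 thresholded summits at factor genes, the 979 thresholded summits within 1 kb of a protein-coding TSS, and all 19607 TSSs of protein-coding genes. The bar labelled 6-mer is ACACTG. DREF matches are at 30.8% of the factor gene summits, against 5.62% and 6.43%, and fork head matches at 46.2%, against 41.5% and 27.6%.

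The DREF site TATCGATA, bound by a factor of proliferation and housekeeping genes, was found within 100 bp of 4 of the 13 summits (30.8%), at eIF1, eIF2A, eIF3a and eEF1gamma. It was at 5.62% of all thresholded summits near protein-coding TSSs and in 6.43% of TSS windows. At eIF3a the match lay 28 bp from the summit, at eEF1gamma 37 bp, at eIF1 58 bp and at eIF2A 63 bp. Promoters of factor genes held this site whether or not they had a thresholded summit: 14 of all 54 genes (25.9%) had it within 100 bp of a TSS, with 5 of the 13 and 9 of the 41 others, against 8.49% of all protein-coding genes. The shorter CGATA of BEAF-32, which lies inside the DREF site, was near 8 of the 13 summits (61.5%), and these include the 4 with the DREF site. It was at 33.2% of the thresholded summits near TSSs and in 37.2% of TSS windows. Factor genes held CGATA at a similar share with or without a summit. It lay within 100 bp of a TSS in 64.8% of the 54 genes and 61.0% of the 41 others. Among protein-coding genes as a whole it was 44.7%. The M1BP core GGTCACAC was near 2 summits (15.4%), those at eIF2A and eEF1alpha1, against 4.09% of thresholded summits near TSSs and 5.68% of TSS windows. That share was near the 16.7% of all 54 factor genes (9 genes) with the core within 100 bp of a TSS, where all protein-coding genes had 7.56%. The 6-mer ACACTG was also near 2 (15.4%), those at eIF1 and eIF2A, a share close to the 18.3% and 14.2% of the same backgrounds. GAGAG of GAGA factor was near 1 (eIF3c), and CAGGTA of Zelda, the early genome activator, was near none of the 13. Of all thresholded summits near TSSs, 27.0% held GAGAG and 4.49% held CAGGTA. These shares rest on 13 windows, and no test was made.

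Some factor genes hold a match to the pyrimidine initiator, the TCT motif of ribosomal protein promoters, near a TSS. A match was CTTT with 2 pyrimidines on each side within 10 bp of any TSS, on the gene's strand. It does not show that transcription starts there, and at eEF2 it lies downstream of the TSS. Such a match, called the initiator below, was present at 7 of the 54 factor genes (13.0%). The shares were 1.74% of all protein-coding genes and 76.1% of the 92 cytosolic ribosomal protein genes. Of the 7 genes, eEF1alpha1, eEF2 and eIF3c had a thresholded summit, within 100 bp of a TSS in each case, which need not be the TSS with the match. The other 4, eIF1A, eIF3e, eIF3f1 and eIF3m, had none. The initiator was at 3 of the 7 factor genes with a thresholded summit within 100 bp (42.9%), against 12.8% of all protein-coding genes with such a summit. It was at 0 of the 6 with the summit farther away, where the share over all genes was 2.07%, so a count of 0 is near the background. Over all protein-coding genes, 30.6% of the 242 genes with the initiator had a thresholded summit within 1 kb, and 8.70% of those without it. Cytosolic ribosomal protein genes made up 70 of the 242, and 46 of the 74 with both initiator and summit. The 12.8% above rests on 57 genes, of which 43 encode cytosolic ribosomal proteins.

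Other genes of translation were read in the same way, from lists written down with earlier results of these data known. Of 92 cytosolic ribosomal protein genes, 54 had a thresholded summit (58.7%), with no test made. Of 20 cytosolic aminoacyl-tRNA synthetase genes 5 had a thresholded summit (25.0%), and of 32 genes of translational regulators and cap or tail proteins 7 did (21.9%). Of 8 mitochondrial translation factor genes none did, and 5 had pooled summits (62.5%). With 8 genes, a count of 0 is near the 9.08% of all protein-coding genes, and 62.5% is near their 58.6% for pooled summits. The synthetases were GluProRS (rank 842), ThrRS (rank 1014), SerRS (rank 1058), IleRS (rank 1103) and AsnRS (rank 1999). Among the regulators the strongest was Lk6, a kinase of eIF4E, with rank 17 and a summit 985 bp from its TSS. It was followed by larp, which encodes an RNA-binding protein (rank 74, 355 bp), the eIF2alpha kinase gene Gcn2 (rank 751, 240 bp) and Rack1, a component of the small ribosomal subunit (rank 802, 34 bp). The remaining 3 were brat (rank 974, 758 bp), whose product acts with eIF4EHP in repressing hunchback mRNA, pelo, a ribosome rescue gene (rank 1727, 81 bp), and mTor, the growth kinase gene (rank 1851, 270 bp).

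**Figure D4:**
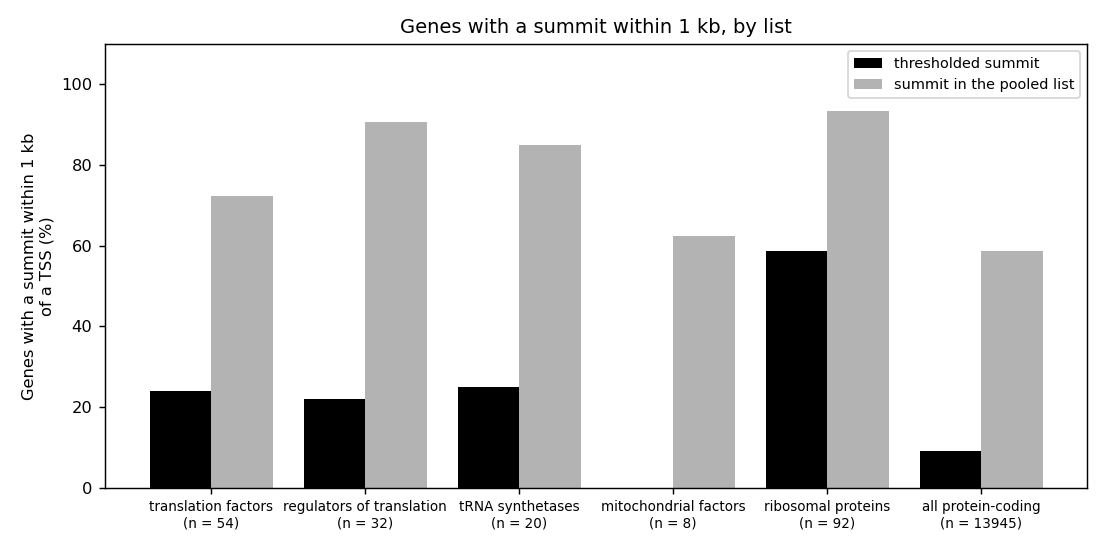
Share of genes (y axis, percent) with a thresholded summit (black) or a summit in the pooled list (grey) within 1 kb of a TSS, for the translation factor genes, the other lists and all protein-coding genes, with the number of genes under each pair of bars. Thresholded summits are at 24.1% of the translation factor genes, 58.7% of ribosomal protein genes and 9.08% of all protein-coding genes.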

How the data were processed

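ChIP-seq peak lists of 2 biological replicates in 1 group were used, with replicate numbers, age and assembly (dm6) from the labels. The deposited lists give a signal, a −log10 q-value and a summit for each peak, as the authors wrote them. Per the notes deposited with the files, peaks were called on each replicate and on both pooled, against a control not analysed here, and the thresholded list was made from these 3. Aligner, caller and threshold: not given in the sources used here. Each full list holds 30000 peaks, and the 2031 thresholded peaks are the highest of the pooled list. Read counts were not used here and sequencing depth is unknown. The labels call the replicates biological and say no more of their origin.

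Genes and TSSs came from Ensembl release 115 (13945 protein-coding genes, 19607 TSSs, 6 arms) and sequence from RefSeq for the same assembly. Peaks were ranked by signal, with ties broken by q. A summit was given to a gene if at most 1 kb from one of its TSSs. Members, lists and motifs were chosen with earlier results of these data known, so shares stand beside those of all protein-coding genes and no test was made. Named genes were every member with a thresholded summit, every member without a pooled summit, the member with the highest pooled peak of a complex without a thresholded summit, numbered paralogs, and those nearest to the 1 kb limit on each side. Other members named in the text were chosen after their values were seen. mEFG2 was not matched, and Tor and nos were read as mTor and nanos. Sequence at 4 of the summits is not shown, and the eIF2A stretch does not reach its summit. Analyses used Python 3.11.15, pandas 2.3.3 and numpy 2.4.6, and matching of summits and motifs was tested on simulated data.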

Additional observations from a re-analysis of the deposited data

How the results depend on the processing

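Of 37 alternative readings, 28 stayed within 1.5 times the reported count or, for the distance, within the SD of the values from each replicate alone, and 9 did not. The 13 factor genes with a thresholded summit were 7 in the strongest 1016 thresholded peaks, 9 when a summit counted only for the nearest protein-coding TSS, and 11 with either replicate alone. In those 1016 peaks the median distance to the TSS was 115 bp in place of 63.0 bp, and it ranged from 63.0 to 91.0 bp with a single replicate. The 91.0 bp had to fall outside the SD, which came from these same values, because the other equalled the reported 63.0 bp. Fork head matches were at 12 of 13 summits when 250 bp were searched each way, where 67.6% of thresholded summits near TSSs had one, and at 4 (30.8%) with 50 bp, where 25.0% had one. DREF matches were at 2 summits with 50 bp (15.4% against 2.96%) and at 6 with 250 bp (46.2% against 9.60%). CGATA was at 5 with 50 bp (38.5% against 18.1%). With 250 bp, ACACTG was at 4 (30.8% against 33.9%), GAGAG at 3 (23.1% against 55.7%) and CAGGTA at 1 (7.69% against 13.0%). The causes were not tested. The count of 39 genes with a pooled summit ranged from 28 within 250 bp of a TSS to 45 within 2 kb. For these counts of genes, shares over all protein-coding genes were given only for the single replicates. Counts at the other settings therefore do not show whether the difference from all genes held. No paired analysis was possible because there is 1 group. Depth is unknown, so a missing peak is not evidence that binding is absent.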
